A study of Mus musculus with 2 samples.

Results

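The genes described here are the cytochrome P450 genes Cyp2b9, Cyp2b10, Cyp2b13, Cyp2a4, Cyp2a5, Cyp2a12 and Cyp2a22 of mouse liver, together with Nr1i3, which encodes the nuclear receptor CAR (constitutive androstane receptor). They were taken by gene name and not by their values, and all 8 were found among the 37146 genes of the files. The libraries came from the livers of CD-1 mice, an outbred laboratory strain. The Control group was given PBS by mouth, and the NP group the same volume of a titanium dioxide (TiO2) nanoparticle suspension at 50 mg per kg body weight per day, after 30 min of ultrasound. Each group had 1 RNA-seq library, called Control and NP below. The labels state no sex, age, length of dosing or number of mice per library.

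Levels are FPKM, fragments scaled to the length of a transcript or gene span and to all mapped fragments of the library, summed over the rows of a gene. The interval beside a value is the 95% interval that Cufflinks estimated within 1 library, combined over rows, so variation from mouse to mouse is not in it. A single library per group leaves no replicate check and no test, so every comparison below is between these 2 libraries. In bulk liver, fewer cells of a type and less RNA per cell cannot be told apart.

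CAR is a transcription factor of hepatocytes that enters the nucleus on exposure to drugs such as phenobarbital, pairs with the retinoid X receptor and turns on genes of drug metabolism, with Cyp2b10 as its classical target. Cyp2b and Cyp2a enzymes sit in the endoplasmic reticulum, oxidise drugs and steroids, and take their electrons from the reductase encoded by Por. Several of these genes are known for sex bias under growth hormone: Cyp2b9, Cyp2b13 and Cyp2a4 are higher in the female than in the male mouse liver.

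The family contains near-identical genes, and this bears on every value given for them. The stretch of 60 coding bases below is where Cyp2b9 and Cyp2b13 differed most, and it shows that reads can separate them there. It lies in exon 7 of 9, at coding bases 1056 to 1115, and capitals mark the 13 differing bases (GENCODE M21, build GRCm38).
Cyp2b9 (chr7:26200824-26200883, plus strand): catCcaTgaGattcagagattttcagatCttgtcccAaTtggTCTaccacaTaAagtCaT
Cyp2b13 (chr7:26088336-26088395, plus strand): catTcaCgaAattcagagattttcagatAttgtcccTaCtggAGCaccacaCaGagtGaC

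Cyp2a4 and Cyp2a5 are shown in the same way across the junction of exons 4 and 5 of 9, at coding bases 596 to 655. The coordinates include the intron and the sequence leaves it out. Capitals mark the 4 bases that differed in this stretch.
Cyp2a4 (chr7:26309030-26310706, plus strand): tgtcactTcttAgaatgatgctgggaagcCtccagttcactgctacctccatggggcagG
Cyp2a5 (chr7:26837193-26838868, plus strand): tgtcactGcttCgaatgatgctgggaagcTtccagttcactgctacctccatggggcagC

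Over whole coding sequences, Cyp2a4 and Cyp2a5 were 98.4% identical, with 23 of 1482 bases different. Cyp2a12 and Cyp2a22 were 97.0% identical, with 45 of 1476 bases different. Cyp2b9 and Cyp2b13 were 92.7% identical, with 107 of 1473 bases different. Cyp2b10 was less close to either, at 87.8% to Cyp2b9 and 88.7% to Cyp2b13. Between the families, identity lay between 61.3% and 64.1%. Of all 50-base words of the Cyp2a4 and the Cyp2a5 coding sequence, 38.2% also occurred in another of these enzymes. The share was 30.1% for Cyp2a12 and for Cyp2a22, 21.6% for Cyp2b13, 12.3% for Cyp2b9 and 9.86% for Cyp2b10. A read that falls wholly inside such a word cannot be placed by its sequence, and no source used here gives the read length.

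**Figure D1:**
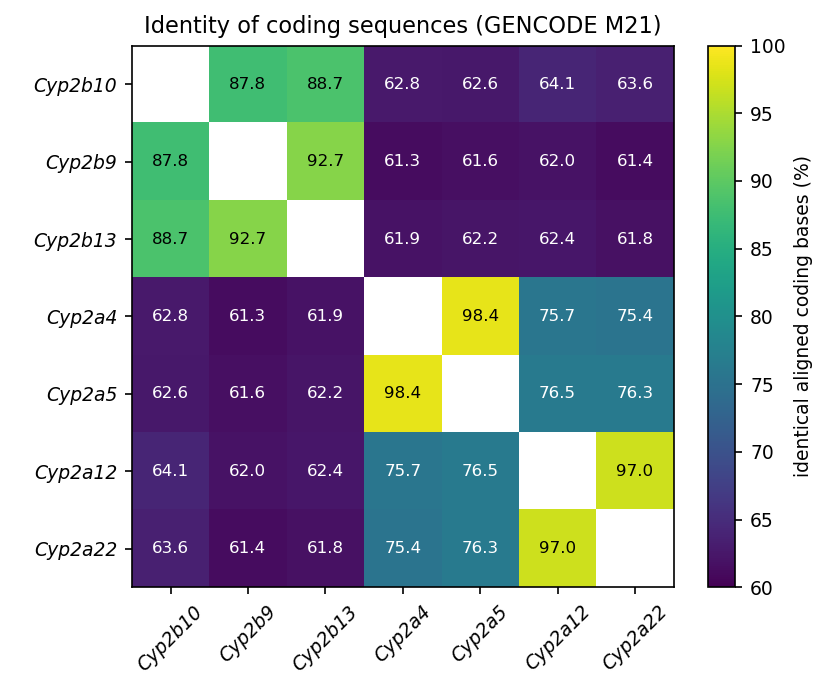
Percent of aligned coding bases that were identical for each pair of the 7 enzymes, as a colour scale from 60 to 100 with the value in each square. The closest pairs are Cyp2a4 with Cyp2a5 (98.4%), Cyp2a12 with Cyp2a22 (97.0%) and Cyp2b9 with Cyp2b13 (92.7%).

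The promoters are shown because Cyp2b9 and Cyp2b13 share almost the whole stretch before their start sites while their levels differed in NP. In Control the intervals of these genes overlapped. All 8 genes had an entry in the RefSeq promoter table (GRCm38.p6), and the 250 bases before the start are given. In Cyp2b9 and Cyp2b13, capitals mark the 2 bases that differ between them and the word TTGTATAA. In Cyp2b10 and Cyp2a5, capitals mark TTGCATAA.
Cyp2b9 (chr7:26173159-26173408, plus strand): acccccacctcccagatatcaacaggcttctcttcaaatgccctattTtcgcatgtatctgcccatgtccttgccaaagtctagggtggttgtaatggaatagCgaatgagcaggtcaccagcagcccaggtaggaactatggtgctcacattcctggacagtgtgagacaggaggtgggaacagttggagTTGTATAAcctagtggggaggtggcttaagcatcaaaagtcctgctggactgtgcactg
Cyp2b13 (chr7:26061245-26061494, plus strand): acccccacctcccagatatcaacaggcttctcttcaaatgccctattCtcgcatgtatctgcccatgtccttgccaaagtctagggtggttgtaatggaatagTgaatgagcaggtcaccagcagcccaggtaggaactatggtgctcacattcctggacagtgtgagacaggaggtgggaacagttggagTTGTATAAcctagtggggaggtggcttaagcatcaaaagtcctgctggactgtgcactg
Cyp2b10 (chr7:25897408-25897657, plus strand): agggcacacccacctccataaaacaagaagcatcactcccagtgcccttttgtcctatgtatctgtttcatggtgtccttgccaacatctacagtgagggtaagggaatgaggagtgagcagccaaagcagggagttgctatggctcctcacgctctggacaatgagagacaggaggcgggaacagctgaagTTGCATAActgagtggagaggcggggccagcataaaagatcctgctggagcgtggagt
Cyp2a5 (chr7:26835089-26835338, plus strand): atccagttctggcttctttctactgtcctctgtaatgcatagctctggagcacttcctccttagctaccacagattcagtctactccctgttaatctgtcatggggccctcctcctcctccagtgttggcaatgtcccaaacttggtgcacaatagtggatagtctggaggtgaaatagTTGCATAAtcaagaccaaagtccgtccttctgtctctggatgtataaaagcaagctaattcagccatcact

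Over 250 bases, the Cyp2b9 and Cyp2b13 promoters were 99.2% identical, whereas Cyp2b9 and Cyp2b10 were 75.8% identical over 240 aligned bases with 58 differences. Cyp2a4 and Cyp2a5 differed at 4 of 249 aligned bases and Cyp2a12 and Cyp2a22 at 24 of 239. Both words were picked after the windows had been read, and both strands were searched. TTGCATAA occurred before Cyp2b10, Cyp2a4 and Cyp2a5, and in 0.694% of the 32851 promoter windows of the table. Its first base lay 58 bases before the start in Cyp2b10, 70 in Cyp2a4 and 71 in Cyp2a5. TTGTATAA began 59 bases before the start in both Cyp2b9 and Cyp2b13, and was held by 0.536% of windows. The words TTATGTAA and TTACGTAA are forms of the site that the clock-output factors Dbp, Tef and Hlf can bind. They were held by 0.819% and 0.113% of windows and by none of the 8 genes. Other forms of this site were not searched as such, and whether TTGCATAA or TTGTATAA is one of them was not tested. The counts therefore do not show that the 8 genes lack a site of these factors. The word CAAAGTCCA, a form of the site of Hnf4a, was held by 0.384% of windows and by none of the 8. Only exact matches were counted. Cyp2a4 and Cyp2a5 hold CAAAGTCCG, which differs from that word at its last base, and other forms of the site were not searched. The TATA word TATAAA was found before Cyp2a4, Cyp2a5, Cyp2a12 and Cyp2a22, against 12.4% of all windows. No match of a word overlapped a match of another. These matches describe the letters in these windows and do not show binding.

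The receptor was abundant and nearly level between the libraries. Nr1i3 (ENSMUSG00000005677.7; chr1:173144101-173150832, build mm9 as in the files) was at 225 FPKM (217 to 234) in Control against 243 (234 to 251) in NP. NP was higher by a ratio of 1.08, and the intervals overlapped by a narrow margin. Among the 10533 genes that passed a filter on low values (mean FPKM of 1 or more), Nr1i3 ranked 343rd from the highest in Control and 330th in NP.

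The rows behind the CAR value were not those of its shorter coding transcripts. Of the 10 rows of Nr1i3, 3 were above 0. The transcript Nr1i3-208, 2980 nt long and annotated as protein coding, was at 111 FPKM in Control against 118 in NP. Nr1i3-207, a retained-intron transcript of 2855 nt, was at 83.9 and 100.4 FPKM. The row that spans the whole gene, which can also take intronic reads, was at 30.3 and 24.6 FPKM. Nr1i3-207 and Nr1i3-208 were thus higher in NP while the span row was lower, by ratios of 1.20, 1.06 and 0.813. The coding transcripts Nr1i3-201, Nr1i3-202 and Nr1i3-203, of 1414, 1305 and 1359 nt, were listed at 0 in both libraries.

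The neighbouring gene Tomm40l, a mitochondrial import gene on the opposite strand, overlaps Nr1i3 over 2900 bases. It was listed at 0 in all 9 rows of both libraries. Of the 2980 bases of Nr1i3-208, 1481 (49.7%) lie in exons of Tomm40l, and of the 2855 bases of Nr1i3-207, 1392 (48.8%) do, against 257 of 1414 (18.2%) for Nr1i3-201. No source used here says whether the counting used strand. Reads of Nr1i3 and Tomm40l therefore cannot be told apart where the genes share exon bases, and the Nr1i3 level is uncertain for that reason.

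**Figure D2:**
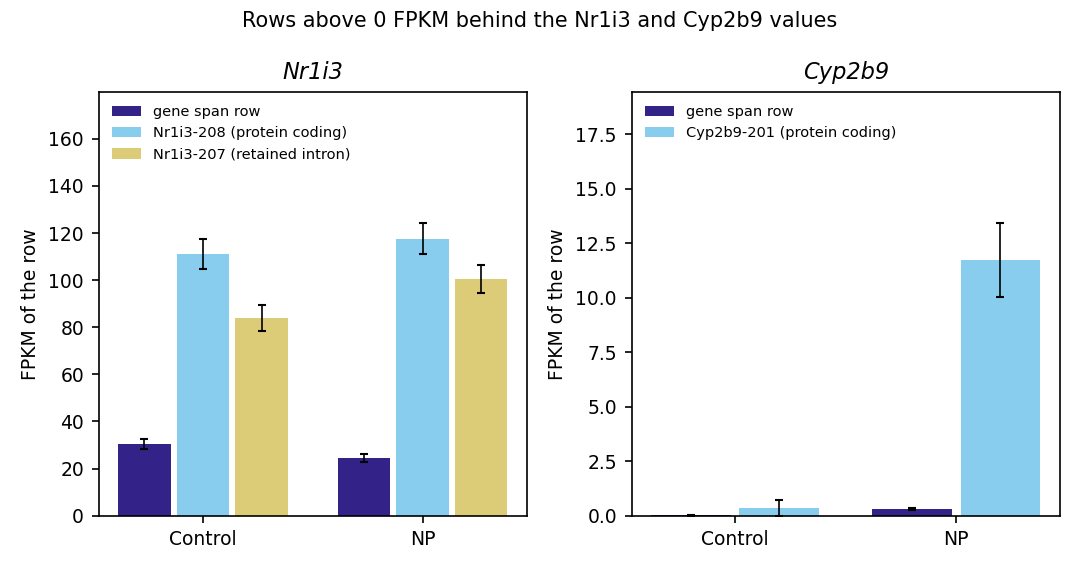
FPKM of each row above 0 for Nr1i3 (left) and Cyp2b9 (right) in Control and NP, as bars from 0 with the 95% Cufflinks interval of 1 library. For Nr1i3, 1 transcript row goes from 83.9 to 100.4 FPKM and the span row from 30.3 to 24.6, both with separate intervals, while the Cyp2b9 transcript row goes from 0.355 to 11.7 FPKM.

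Among the Cyp2b enzymes, Cyp2b9 was far higher in NP, Cyp2b13 had overlapping intervals, and Cyp2b10 gave no value above 0 in NP to compare. Cyp2b9 (ENSMUSG00000040660.6; chr7:26958430-26995680, mm9), a steroid-oxidising enzyme of female-biased expression, was at 0.369 FPKM (0.0192 to 0.719) in Control against 12.0 (10.4 to 13.7) in NP. The intervals were separate, with NP the higher library, and the ratio was 32.6, or 3.25 on the log2(FPKM + 1) scale that shrinks the ratios of low genes. Because the Control level is near the floor, the ratio is loose: the ends of the intervals allow ratios from 14.4 to 715. Cyp2b9 passed the filter on low values through NP alone.

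Both rows of Cyp2b9 were higher in NP. Its only transcript, Cyp2b9-201, was at 0.355 FPKM in Control against 11.7 in NP, with mean read coverages of 0.810 and 32.1. Its span row of 37251 bases was at 0.0136 and 0.314 FPKM, a ratio of 23.1 beside 33.0 for the transcript. Exon reads and the reads counted over the gene body thus went the same way.

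Cyp2b10 (ENSMUSG00000030483.8; chr7:26682639-26711643, mm9), the enzyme by which CAR activity is usually read, was at 0.595 FPKM (0.200 to 0.991) in Control, and all of its NP rows were listed at 0. Its Control value lay in the transcript Cyp2b10-201 at 0.521 FPKM and in the span row at 0.0741. All 4 of its rows in NP were given an upper limit of 0. By contrast, the transcript row of Cyp2b13, listed at 0, had upper limits of 0.110 in Control against 0.107 in NP. Cufflinks can also write 0 where its estimate failed, and a fold is left out here. With a mean of 0.298 FPKM the gene did not pass the filter.

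Cyp2b13 (ENSMUSG00000040583.6; chr7:26846514-26881215, mm9), the closest relative of Cyp2b9, was at 0.0764 FPKM (0.0445 to 0.108) in Control against 0.0945 (0.0617 to 0.127) in NP. The intervals overlapped and the gene did not pass the filter. All of its signal lay in the span row, which also covers Gm8946, a gene of 1167 bases at 1.36 FPKM (0.568 to 2.16) in Control against 2.82 (1.76 to 3.88) in NP. The Cyp2b13 transcript itself was not detectable in either library at this depth.

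Because fragments of Cyp2b9 and Cyp2b13 can be assigned to either gene, their sum was also taken. It was 0.445 FPKM (0.0942 to 0.797) in Control against 12.1 (10.5 to 13.8) in NP, a ratio of 27.2. For all 3 Cyp2b genes together the levels were 1.04 and 12.1 FPKM, a ratio of 11.7. Within that sum, the share of Cyp2b9 was 35.5% in Control and 99.2% in NP, and that of Cyp2b10 57.2% in Control. The sum of 3 genes and these shares take the 0 of Cyp2b10 in NP as it stands, and both would change if that estimate failed.

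**Figure D3:**
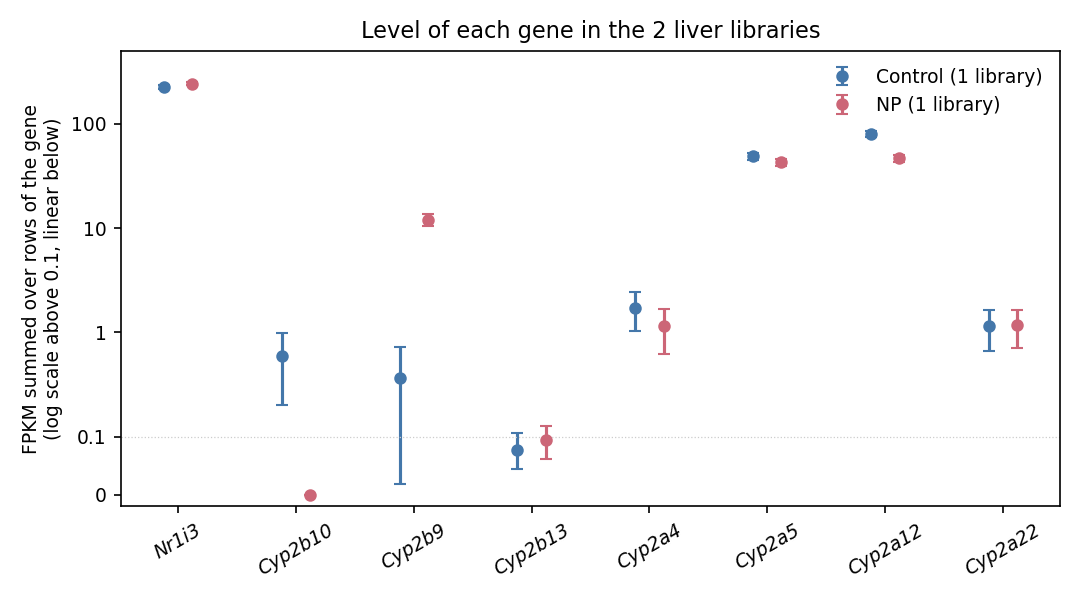
FPKM of the 8 genes in Control and NP, 1 library each, on a log axis above 0.1 that is linear below, with points for the summed level and bars for the 95% Cufflinks interval. Cyp2b9 moves from 0.369 to 12.0 FPKM and Cyp2a12 from 80.1 to 46.5, while the intervals of Nr1i3, Cyp2a4, Cyp2a5, Cyp2a22 and Cyp2b13 overlap.

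Among the Cyp2a enzymes, Cyp2a12 was lower in NP and the intervals of the other 3 overlapped. Cyp2a12 (ENSMUSG00000060407.5; chr7:27814109-27821826, mm9), a steroid and bile acid hydroxylase, was at 80.1 FPKM (74.3 to 85.9) in Control against 46.5 (42.5 to 50.4) in NP. NP was the lower library with separate intervals, a level 1.72-fold lower and a log2 ratio of -0.77. All of the value lay in its transcript row in both libraries. Of all genes that passed the filter, 3.11% had a lower ratio.

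Cyp2a5 (ENSMUSG00000005547.8; chr7:27620324-27628567, mm9), which hydroxylates coumarin and nicotine, was at 48.7 FPKM (44.8 to 52.6) in Control against 42.6 (39.2 to 46.0) in NP. The ratio was 0.875 and the intervals overlapped. The whole value lay in the transcript Cyp2a5-201, and the other 5 rows were listed at 0 in both libraries.

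Cyp2a4 (ENSMUSG00000074254.3; chr7:27092209-27100107, mm9), a female-biased steroid hydroxylase, was at 1.73 FPKM (1.03 to 2.44) in Control against 1.16 (0.626 to 1.69) in NP. NP was the lower library by a ratio of 0.668, with overlapping intervals. Cyp2a22 (ENSMUSG00000091867.1; chr7:27716650-27724405, mm9) was at 1.15 FPKM (0.660 to 1.63) and 1.17 (0.716 to 1.62), a ratio of 1.02. Its transcript row was the lower in NP, at 1.09 and 0.995 FPKM, and its span row the higher, at 0.0588 and 0.175 FPKM. Both low genes are the lesser member of a near-identical pair, so their levels are uncertain.

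The pair sums kept the pattern of the abundant members. Cyp2a4 and Cyp2a5 together were at 50.4 FPKM in Control against 43.8 in NP, a ratio of 0.868. Cyp2a12 and Cyp2a22 together were at 81.2 and 47.6 FPKM, 1.71-fold lower in NP. All 4 Cyp2a genes summed to 132 FPKM (125 to 139) in Control against 91.4 (86.1 to 96.6) in NP, 1.44-fold lower. Cyp2a12 made up 60.8% of the Cyp2a sum in Control and 50.8% in NP, and Cyp2a5 37.0% and 46.6%. Of the FPKM of all 7 enzymes, Cyp2b9 held 0.278% in Control and 11.6% in NP.

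Of the 6 genes that passed the filter, 1 (Cyp2b9) was at least 2-fold higher in NP on the log2(FPKM + 1) scale, against 1.14% of all genes that passed, and 0 were 2-fold lower, against 1.88%. At 1.5-fold, 1 was higher (background 3.6%) and 1, Cyp2a12, was lower (5.33%). The NP interval lay above that of Control for 1 gene (7.73% of all) and below for 1 (9.58%). Since Cyp2b9 passed the filter through its NP level, its place in this count was set by the same difference, and nothing is read from the count against the background. The median log2 ratio of all genes that passed was -0.03. On this scale 17 genes had a higher ratio than Cyp2b9, and all 17 were listed at 0 in Control. Among the 10436 genes above 0 in both libraries, 0 had a higher one on this scale. That rank depends on the scale: by FPKM itself, Ap4s1 had a ratio of 36.9 beside 32.6 for Cyp2b9.

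The order of the levels differed between the libraries. In Control, Nr1i3, Cyp2a12, Cyp2a5 and Cyp2a4 followed each other with separate intervals. Below Cyp2a4 came Cyp2a22, Cyp2b10, Cyp2b9 and Cyp2b13, and each overlapped with its neighbour. In NP, Nr1i3 again led, the intervals of Cyp2a12 and Cyp2a5 overlapped, and Cyp2b9 came next, apart from its neighbours on both sides. Cyp2a22 and Cyp2a4 overlapped, Cyp2b13 was below them and Cyp2b10 was listed at 0.

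The 7 enzymes lie in a cluster of Cyp2 genes on mm9 chromosome 7 that spans 1356 kb from Cyp2s1 to Cyp2t4 and holds 28 genes of the files, 13 of them Cyp2 genes. Of the 28 genes, 8 had a mean FPKM of 1 or more. Cyp2b9 lies 77.2 kb from Cyp2b13 and 96.5 kb from Cyp2a4, the flanking enzymes, and neither moved with it beyond its interval. Cyp2a12 lies 89.7 kb from Cyp2a22 and 83.1 kb from Cyp2f2, an abundant P450 at 683 FPKM in Control against 795 in NP. The Cyp2f2 interval was higher in NP while that of Cyp2a12 was lower. Cyp2g1, an olfactory P450, was at 0.00428 FPKM in Control but 0 in NP. Of 12 other genes listed for the region, Cyp2f2 included, 11 were in the files, 5 passed the filter and 0 were 1.5-fold higher or lower, with a median log2 ratio of 0.16. Their ratios ran from Axl (1.49 and 1.23 FPKM) to Snrpa (16.6 and 22.4 FPKM). Of the listed genes that passed, only Cyp2f2 lies within the span from Cyp2s1 to Cyp2t4. Gm8946, within the span but not listed, passed the filter at 1.36 FPKM in Control against 2.82 in NP. Its log2 ratio of 0.69 was past 1.5-fold higher, with overlapping intervals.

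**Figure D4:**
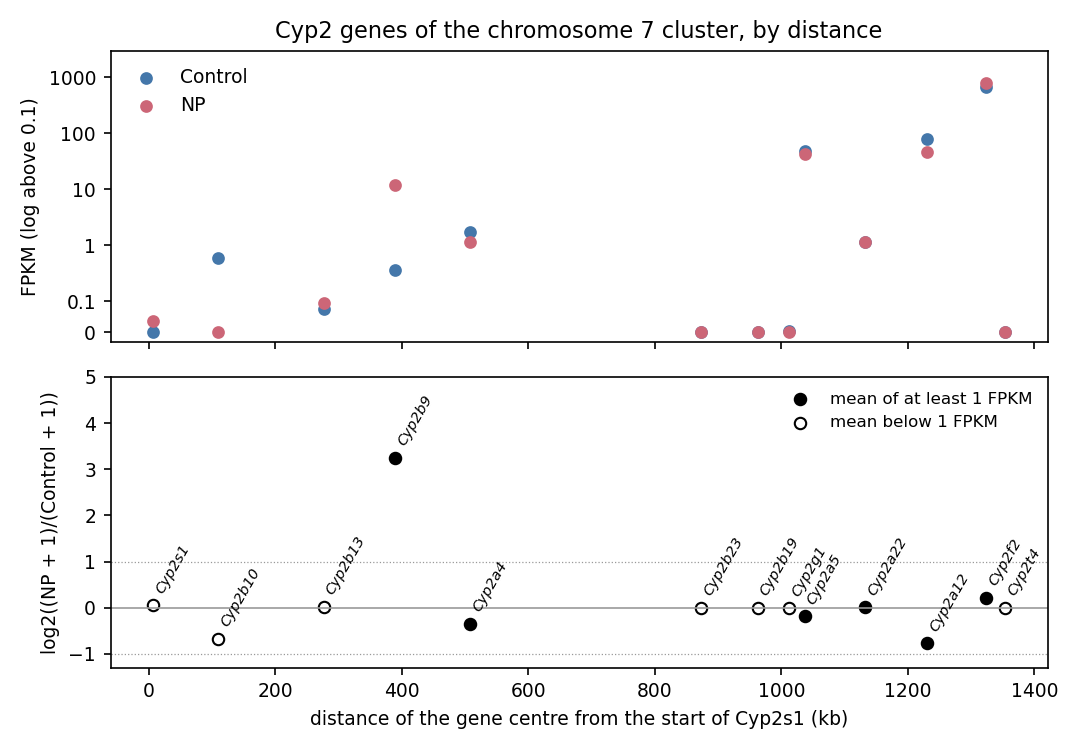
FPKM in Control and NP (upper panel, log axis above 0.1) and log2((NP + 1)/(Control + 1)) (lower panel) of the 13 Cyp2 genes of the cluster, against the distance of the gene centre from the start of Cyp2s1 in kb. Filled points have a mean of at least 1 FPKM, and Cyp2b9 at 3.25 stands above its neighbours.

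The other known targets of CAR were read beside its level. Of 37 listed genes 32 passed the filter: 7 were at least 1.5-fold higher, 1 was lower and 24 lay between, with a median log2 ratio of 0.17 beside -0.03 for all genes. At 2-fold, 2 were higher and 0 lower. These counts use the log2(FPKM + 1) scale. By FPKM itself, Gstm2 and Ces2c were also past 2-fold higher, at ratios of 2.07 and 2.70. The NP interval was above that of Control for 14 and below for 5. Ces2a, a carboxylesterase, had the highest ratio at 25.1 FPKM (22.5 to 27.7) in Control against 129 (122 to 137) in NP. Aldh1a7, an aldehyde dehydrogenase, was at 15.2 and 32.7 FPKM, and the glutathione transferase Gstm2 at 8.94 and 18.5 FPKM. Cyp2c29 was at 185 and 315 FPKM and Cyp3a11, the main Cyp3a enzyme of mouse liver, at 2496 and 3664 FPKM. All of these were higher in NP with separate intervals. At the other end stood Thrsp, a regulator of fat synthesis, at 8.25 and 5.03 FPKM. Por, the reductase that supplies electrons to the Cyp2a and Cyp2b enzymes, was at 194 FPKM (184 to 204) in Control against 147 (139 to 154) in NP, and Papss2, which makes the sulphate donor, at 22.9 and 18.5 FPKM. Many genes of this list are also targets of PXR, the receptor related to CAR, and the Cyp2a and Cyp2b genes are not counted in it. Over all genes that passed the filter, 3.6% were 1.5-fold higher and 5.33% lower, and 1.14% and 1.88% at 2-fold. The NP interval was above for 7.73% of them and below for 9.58%. These shares are the background for the lists that follow as well.

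Of the partners and regulators of CAR, few differed by 1.5-fold. All 30 passed the filter, with a median log2 ratio of -0.08. On the log2(FPKM + 1) scale, 0 were 1.5-fold or more higher and 2 were lower by as much (Tef, and Dbp through its listing at 0 in NP). By FPKM itself, Cebpb was also past 1.5-fold higher, at a ratio of 1.51. The NP interval was above that of Control for 5 and below for 7. Rxra, the partner of CAR on DNA, was at 106 FPKM (101 to 112) in Control against 97.3 (92.4 to 102) in NP, with overlapping intervals. Nr1i2, which encodes the related receptor PXR, was at 47.3 (43.8 to 50.8) and 38.3 (35.4 to 41.2) FPKM, lower in NP with separate intervals. Egfr, through which phenobarbital acts on CAR, was at 87.5 and 66.1 FPKM, and Ppp1r16a, a subunit of a phosphatase, at 12.8 and 9.29 FPKM. Cebpb, Foxa2 and Hnf4a, hepatocyte transcription factors, were the highest of the list, at 51.5 and 77.7, 8.50 and 12.7, and 200.1 and 248 FPKM. Cebpa, another such factor of the list, was at 153 and 118 FPKM, lower in NP with separate intervals. The clock-output factors Tef, Hlf and Dbp, which regulate CAR and P450 genes over the day, belong to this list. Tef was at 36.6 and 22.1 FPKM, Hlf at 17.3 and 14.1 with overlapping intervals, and Dbp at 31.7 FPKM in Control but 0 in NP, so it has no fold and its estimate may have failed.

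Of 12 regulators of Cyp2a5, 3 were 1.5-fold lower (Tef, Usf1, and Dbp through its listing at 0) and 0 higher, and the median log2 ratio was -0.05, while Cyp2a5 itself kept overlapping intervals. Nfe2l2, the oxidative stress factor that induces Cyp2a5, was at 18.9 and 24.2 FPKM with the NP interval above. Usf1 (15.1 and 9.72 FPKM) and Arnt (9.36 and 6.25 FPKM), factors of the basic helix-loop-helix type, were lower with separate intervals. Hnrnpa1, which binds the Cyp2a5 mRNA, was at 1.93 FPKM in both libraries, and Nfia was at 4.74 and 5.79 FPKM. Dbp, Tef, Hlf, Hnf4a and Ppargc1a belong to this list and to the partners of CAR.

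Because Cyp2b9, Cyp2b13 and Cyp2a4 are female-biased, other genes of sex bias were set beside them. Of 22 other female-biased genes 14 passed the filter. On the log2(FPKM + 1) scale, 4 of these were at least 1.5-fold higher and 1 lower, against 3.6% and 5.33% of all genes that passed. By FPKM itself, Cyp39a1, Cyp3a41a and Cyp17a1 were also 1.69-fold, 1.90-fold and 1.51-fold lower, with overlapping intervals. The median log2 ratio of the 14 was -0.23. That median depends on the filter: it was 0.48 at a mean of 5 FPKM or more, and -0.03 with no filter. Abcd2, a peroxisomal transporter, was at 2.06 FPKM (1.23 to 2.90) in Control against 8.54 (6.97 to 10.1) in NP, and Cyp2c38 at 10.7 and 35.0 FPKM. Acot3, an acyl-CoA thioesterase, was at 12.9 and 28.7 FPKM. Cyp3a44 was at 3.24 and 1.12 FPKM, lower in NP with separate intervals, while those of Cyp39a1 (3.70 and 2.19 FPKM) and Cyp3a41a (1.40 and 0.738 FPKM) overlapped. In all, 4 of the 14 had a log2 ratio above 0, as Cyp2b9 had, and 10 below 0, as Cyp2a4 had. Outside the filter, and chosen after their values were seen, Cux2, a repressor of male-biased genes in female liver, was at 0.141 and 1.78 FPKM, Nipal1 at 0.181 and 0.631 and Atp6v0d2 at 0.000175 and 0.892, each higher in NP with separate intervals.

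Of 19 male-biased genes, all of which passed the filter, 9 were at least 1.5-fold lower and 0 higher. Of all genes that passed, 5.33% were lower and 3.6% higher by as much. The male-biased list had a median log2 ratio of -0.54. Elovl3, a fatty acid elongase, was at 174 and 43.6 FPKM, Cyp7b1, an oxysterol hydroxylase, at 236 and 82.8, and Hsd3b5, a steroid dehydrogenase, at 42.7 and 16.3. Cyp4a12a (166 and 186 FPKM), Gstp1 (1964 and 2109 FPKM) and Susd4 (12.4 and 12.9 FPKM) stood at the other end. The labels give no sex, and the files were read for it after the values above had been seen. Y-linked genes were expressed in both libraries, with Eif2s3y at 35.5 FPKM (32.2 to 38.8) in Control against 38.8 (35.5 to 42.2) in NP and Kdm5d at 3.02 and 3.74 FPKM. Xist, made from the inactive X of females, was at 0.0184 FPKM in Control but 0 in NP. Both libraries therefore held RNA of males. The number of mice is not stated, and whether a library also held some female RNA was not tested.

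Of 17 genes of growth hormone signalling and sex bias that passed the filter, 2 were 1.5-fold lower (Bcl6, and Stat5a through its listing at 0) and 0 higher, and the median log2 ratio was 0.12. Bcl6, a repressor of female-biased genes in male liver, was at 8.51 FPKM (7.45 to 9.57) in Control against 4.56 (3.88 to 5.23) in NP, lower with separate intervals. Jak2, the kinase of the growth hormone receptor, was at 3.76 and 2.68 FPKM, also with separate intervals, and Socs2 at 3.39 and 2.93 FPKM with overlapping ones. Foxa3 was at 26.4 and 35.1 FPKM and Igfals at 30.3 and 38.9 FPKM, both higher. Stat5a was at 6.14 FPKM in Control but 0 in NP, which can also be an estimate that failed.

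**Figure D5:**
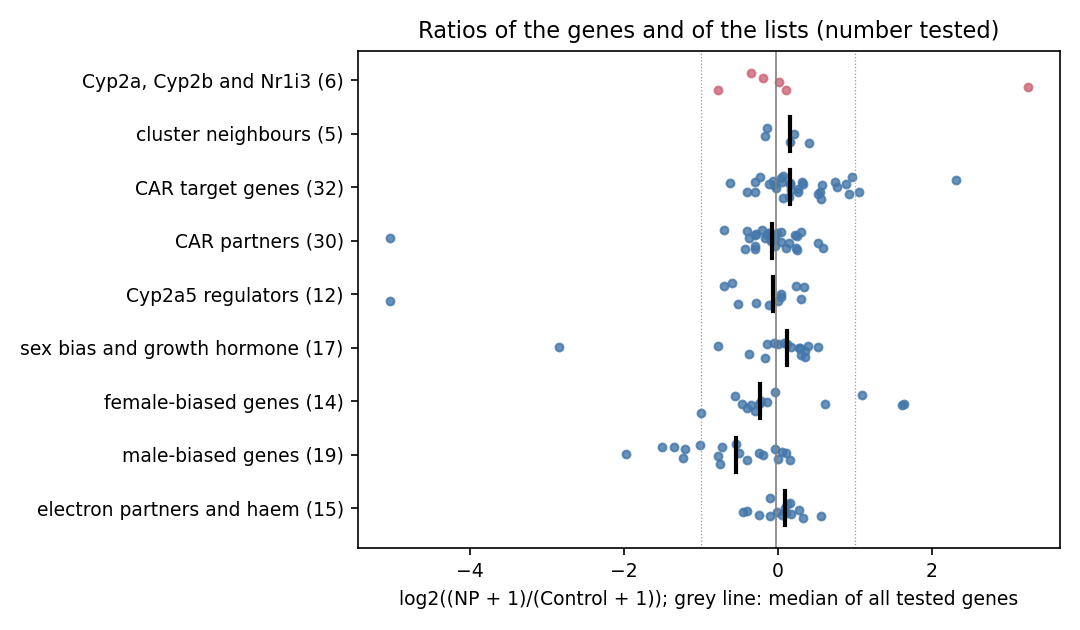
Log2((NP + 1)/(Control + 1)) of single genes (points) for the 6 genes described here that passed the filter and for 8 gene lists, with the number of genes in brackets, a black bar for the median of each list and a grey line at the median of all genes (-0.03). Dotted lines mark 2-fold; Cyp2b9 at 3.25 lies to the right of all points of the lists, and the male-biased list has its median at -0.54.

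The genes nearest to Cyp2b9 in log2 ratio over the 2 libraries, among genes above 0 in both, were Gm20481 (5.91 and 54.3 FPKM), Hspa1b, a heat shock protein (8.07 and 60.1 FPKM), and Ap4s1, an adaptor subunit (0.179 and 6.61 FPKM). Their log2 ratios differed from that of Cyp2b9 by -0.25, -0.50 and -0.56. This likeness rests on 1 ratio a gene and carries no statement on shared control.

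Hepatocyte genes marked both libraries as liver. The summed level of 7 hepatocyte markers was 47563 FPKM in Control against 60001 in NP. Summed levels of 10 pericentral markers, the zone in which Cyp2a5 is known to be expressed, were 6744 and 5648 FPKM, with Cyp2e1 at 5880 and 4812, and those of 9 periportal markers 3837 and 3933. Log2 ratios of sinusoidal endothelial markers were below 0 for 10 of 10 genes, with separate intervals for 3 and 0 past 1.5-fold. These endothelial markers summed to 137 and 109 FPKM. Kupffer cell markers summed to 37.0 and 20.6 FPKM, with Clec4f alone at 18.4 and 7.63. Of the 6 that passed the filter, 5 had a log2 ratio below 0 and 1 above, with separate intervals for 2. Stellate markers summed to 107 and 89.3 FPKM, with Dcn at 70.8 and 57.7. Of the 7 that passed, 5 were below 0 and 2 above, with separate intervals for 3. Pancreas acinar markers summed to 19.8 and 9.01 FPKM, most of it Cela1 at 12.6 and 8.95 with overlapping intervals. Pnlip, Prss2, Amy2a5 and Cel were above 0 in Control but listed at 0 in NP, where an estimate may have failed. Cpa1 was at 1.02 and 0.0649 FPKM, and Cela2a was listed at 0 in both libraries. Of these 7 markers, 2 passed the filter. The part of these differences in the levels of the Cyp2a and Cyp2b genes was not tested. NP was the more deeply covered library, with 2.93 units of read coverage per FPKM against 2.29 in Control.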

How the data were processed

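RNA-seq libraries of liver from the Control and the NP group, 1 each, were compared. Total RNA was taken with Trizol and made into TruSeq libraries, per the labels' protocols. Per the submitters' processing notes, TopHat2 2.1.0, Cufflinks 2.2.1.0 and build mm9 were used; read length, strand setting and mapped reads are stated in no source used here. Deposited FPKM values and their 95% limits, per the file headers in Cufflinks' isoform format, are given for transcripts and for whole gene spans. Deposited read coverage, per the file headers, is a signal not scaled to library size.

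FPKM were summed over the rows of a gene, and row half-widths were combined in quadrature without covariance, so a gene listed at 0 has an interval of no width. A filter (mean FPKM of 1 or more, no failed row, a transcript of 300 nt or longer, no small RNA name) kept 10533 of 37146 genes. Ratios were log2((NP + 1)/(Control + 1)), and 1.5-fold and 2-fold counts use that scale. Single-gene ratios are those of FPKM itself. No test was possible.

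The genes, the 8 gene lists, the 11 marker lists and the alternatives were chosen with earlier results of these data known. Named were all 8 genes, the 3 highest and 3 lowest of each list above 0 in both libraries with set background genes, the 3 genes nearest Cyp2b9, and the 5 highest and 5 lowest Cyp genes. The result of 1 gene that this rule names is not reported here. Of the marker lists, a few cell types' sums are given. Other markers, Cebpa, Ces2c, Cyp17a1 and the Y-linked genes named were chosen after their values were seen.

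Coding sequences came from GENCODE M21 (GRCm38) and promoters from RefSeq (GRCm38.p6). Coordinates of the files are mm9 and were never converted. Identity was counted on global alignments with Biopython 1.88. The scripts were tested on simulated data. Alternatives covered the pseudocount, scaling, rows, filter and size rule, with read coverage and a version without genes at 0 added after seeing the data. Python 3.11.15, pandas 2.3.3, numpy 2.4.6 and matplotlib 3.10.9 were used.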

Additional observations from a re-analysis of the deposited data

How the results depend on the processing

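No paired analysis was possible because each group has 1 library. Of 216 values recomputed under the alternatives, 194 stayed within a tolerance, 22 moved and 0 reversed a gene or sum past 2-fold; 45 of 48 values of the 8 genes stayed. The tolerance was 1.5 times for a count, 0.1 for the median of a list, and the ratio that the Cufflinks intervals allow for a gene or sum. The log2 ratio ran from 3.17 to 4.69 for Cyp2b9, -0.78 to -0.75 for Cyp2a12, 0.08 to 0.16 for Nr1i3, -0.20 to -0.16 for Cyp2a5, -0.54 to -0.25 for Cyp2a4 and -0.07 to 0.17 for Cyp2a22, which alone of these 6 took either sign. With a pseudocount of 0.1, which shrinks low genes less by its construction, Cyp2b9 was at 4.69, Cyp2b10 at -2.80 and Cyp2b13 at 0.14. The sum of Cyp2b9 and Cyp2b13 went from 3.18 to 4.49 and that of all Cyp2b from 2.69 to 3.42. Also with 0.1, CAR targets past 2-fold higher went from 2 to 4, and all genes from 120 to 191 higher and from 198 to 337 lower. The 1.5-fold rule gave 7 CAR targets higher and 1 lower, 1 of the 8 genes lower, and 379 genes higher and 561 lower. A mean of at least 5 FPKM, which tests fewer genes, gave 65 higher and 84 lower. Using the highest row gave 202 higher, and the cause was not tested. Leaving out genes at 0 gave 76 higher. The median of the female-biased list changed sign to 0.48 at 5 FPKM, and was -0.03 without a filter. That of the Cyp2a5 regulators was -0.16 on transcript rows and -0.19 at 5 FPKM, and that of the cluster neighbours 0.02 without a filter. The causes were not tested. Depth limits Cyp2b10, Cyp2b9 in Control and Cyp2b13, which lie under 1 FPKM, and no library has a replicate.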

Other observations

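The supply of electrons and haem, the prosthetic group of all P450 enzymes, was followed as a group. Of 16 listed genes 15 passed the filter and 0 were 1.5-fold higher or lower, with a median log2 ratio of 0.10. Alas1, the first enzyme of haem synthesis, was at 97.0 FPKM (91.1 to 103) in Control against 143 (136 to 150) in NP, and Cyb5r3, a cytochrome b5 reductase, at 68.5 and 86.1 FPKM, both higher with separate intervals. Blvrb, a biliverdin reductase, was at 187 and 137 FPKM, lower with separate intervals as Por was, and Ppox was at 10.2 and 8.42 FPKM with overlapping ones.

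Of 103 genes of the files whose name starts with Cyp, 64 passed the filter. At 1.5-fold on the log2(FPKM + 1) scale, 6 were higher and 9 lower, against 3.6% and 5.33% of all genes that passed. At 2-fold on that scale, 3 were higher and 4 lower, against 1.14% and 1.88%. The median log2 ratio of these Cyp genes was -0.06. The highest were Cyp2b9, Cyp2c38, Cyp2c39 (63.7 and 167 FPKM), Cyp4a14, a fatty acid hydroxylase (1209 and 2244 FPKM), and Cyp2c70, which makes muricholic acids (25.4 and 45.5 FPKM). The lowest were Cyp7b1, Cyp2d12 (6.38 and 1.69 FPKM), Cyp7a1, which sets the rate of bile acid formation (35.5 and 13.7 FPKM), Cyp26a1, which degrades retinoic acid (6.78 and 2.30 FPKM), and Cyp3a44. Cyp2a12 stood 9th from the lowest. These are values of 2 libraries with no replicate.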
